A study of Mus musculus with 123 samples.

Results

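Oct4, encoded by Pou5f1, is a POU-family transcription factor that reaches the mouse embryo first as product stored in the egg and then from the embryo's own genome. The embryos described here came from mothers whose own Oct4 supply was intact, which the labels call MWT. They were taken by the words Oct4, Ctrl and MWT and by the stage in each column name of the deposited count table, with no measured value used, and are 20 single-embryo RNA-seq libraries beside 103 others in the series. There were 7 morulae, 5 early inner cell masses (ICMs) and 8 late ICMs, and the comparisons were from morula to early ICM and from early to late ICM.

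All 20 embryos carried the genotype label Oct4_Ctrl_MWT and the background label B6C3F1, and came from superovulated females. According to the study these litters mixed embryos with a floxed and an mKO2-marked null Pou5f1 allele and embryos with a floxed and a wild-type allele. The labels do not say which embryo was which, so the zygotic genotype could not be entered in any test. Embryos named Oct4 Ctrl, used here only for comparison, came from Pou5f1 flox/flox; Zp3-Cre mothers, whose oocytes delete the gene, mated with +/mKO2 males. These embryos showed no mKO2 fluorescence, so their only intact allele was paternal. Morulae were whole embryos, whereas ICMs were, by the study's methods, morulae cultured in KSOM with the MEK inhibitor PD0325901 at 1 μM until the early or late blastocyst stage and then freed of the outer layer by immunosurgery. From morula to early ICM the stage, the culture, the inhibitor and the removal of the trophectoderm therefore changed together and cannot be told apart. The titles and the tissue labels disagree: the MWT libraries titled early ICM carry the tissue label of a morula and no treatment, and those titled late ICM carry that of an early ICM. The tissue labels give E2.75 (embryonic day) for the MWT morulae and for the MWT libraries titled early ICM, and E3.75 for those titled late ICM, against E2.75, E3.75 and E4.5 for the 3 stages of Oct4 Ctrl. The titles were followed here, and each embryo was compared with the other groups of the series to see which stage it was nearest to.

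During these days the outer cells of the mouse embryo become trophectoderm, while inner cells form the ICM, which divides into epiblast and primitive endoderm. The epiblast is marked by Nanog, Sox2 and Fgf4 and the primitive endoderm by Gata6, Pdgfra and then Sox17 and Gata4, with FGF4 from epiblast cells acting through MEK and ERK to promote the primitive endoderm. A MEK inhibitor given from the morula onward is used to keep ICM cells on the epiblast side.

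Libraries held 562308 to 1098403 unique molecular identifiers (UMIs, each 1 captured transcript). Means were 970409 ± 90803 UMIs in morulae (SD, n = 7), 954296 ± 106411 in early ICMs (n = 5) and 664874 ± 103260.4 in late ICMs (n = 8). Depth did not differ detectably between morulae and early ICMs (two-sided exact permutation test, p = 0.793), and late ICMs were shallower than early ICMs (p = 0.00311). A principal component analysis of log2 CPM over the 500 most variable genes put 67.0% of the variance on PC1, where morulae lay between -47.7 and -30.6, early ICMs between -1.75 and 21.2 and late ICMs between 14.5 and 34.8. Of the 20 embryos, 19 correlated best with the Oct4 Ctrl embryos of their own titled stage. Late ICM 20 was the exception, nearest to the early ICMs, and against the Sox2 Ctrl embryos late ICM 15 joined it. Early ICM 3 was the early embryo nearest the late ones. No pair of libraries of 1 stage looked like the same library deposited again (59 pairs, lowest chi-square per gene 2.54).

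**Figure D1:**
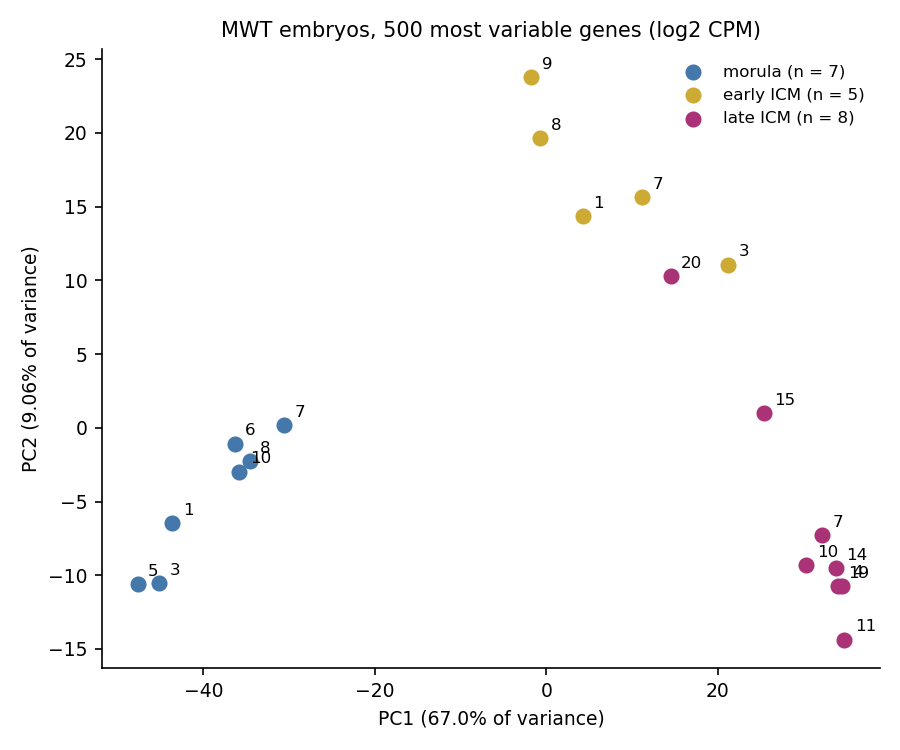
Each point is 1 MWT embryo, numbered as in its label, with PC1 on the x axis and PC2 on the y axis (log2 CPM of the 500 most variable genes; the axes carry 67.0% and 9.06% of the variance). Morulae stand apart on the left, and late ICM 20 sits beside early ICM 3.

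Markers of the cell types that the samples could hold were summed in each embryo as CPM, which are UMI counts relative to the library size after TMM scaling. The 6 epiblast markers summed to between 466 and 959 CPM in morulae, 1431 and 3031 in early ICMs and 1899 and 3744 in late ICMs. The 6 primitive endoderm markers ran the other way, from 479 to 786 CPM in morulae, 225 to 501 in early ICMs and 15.1 to 308 in late ICMs, with Foxa2 at 0 in all groups. In morulae Gata6 made up nearly all of this sum, at 459.6 to 769 CPM. The lower sum in early ICMs therefore follows Gata6, while Pdgfra and Sox17 rose at that step, as given below. Of the wider list of 19 tested primitive endoderm genes, 11 rose and 5 fell at that step. The 7 trophectoderm markers summed to between 178 and 850.0 CPM in morulae, 88.7 and 573 in early ICMs and 49.0 and 1969 in late ICMs. Late ICMs 10 and 11 were the highest of all 20 embryos for the trophectoderm sum, at 942 and 1969 CPM. The 6 oocyte markers summed to between 35.4 and 65.0 CPM in morulae and at most 12.04 CPM in any ICM, and the 5 measured markers of cumulus and other somatic cells never exceeded 3.27 CPM. The part of trophectoderm cells in the late ICM results was not tested other than by leaving out embryos 10 and 11.

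**Figure D2:**
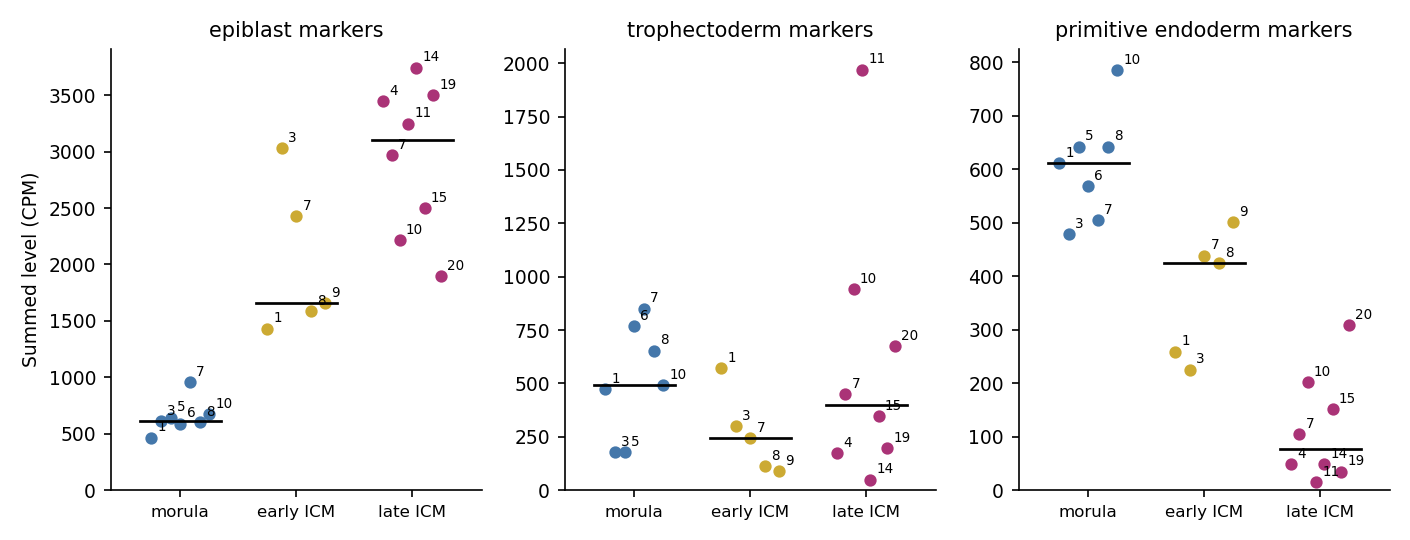
The y axes give the summed CPM of 6 epiblast, 7 trophectoderm and 6 primitive endoderm markers in each numbered MWT embryo by stage, with black bars at the medians. Epiblast markers were higher and primitive endoderm markers lower in the late ICMs, and late ICM 11 reached 1969 CPM for the trophectoderm markers.

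From morula to early ICM, 2135 genes rose and 1713 fell among 13923 tested, which is 27.6% of all genes tested. A gene is said to rise or fall where edgeR's quasi-likelihood test gave a Benjamini-Hochberg adjusted p below 0.05 and the fold change was at least 1 on the log2 scale. Fold changes are given with their standard errors. Where leaving out 1 embryo moved a fitted fold change by over 1.5 times and its call held, a value closes the paragraph. That value is the log2 fold change without the embryo. For folds given as UMI ratios or bounds it is printed for some genes only. Of 35 such named calls, 19 were moved by that much with the call kept. In 2008 of the genes called at the first step (14.4% of those tested) the values of the embryos did not overlap between stages. From early to late ICM, 1013 genes rose and 826 fell (13.2% of those tested), with 552 showing no overlap (3.96%). Over all 13923 genes the median log2 fold change was 0.06 at the first step and 0.00 at the second, and scaling by library totals alone moved the first to 0.20. The number of calls depended on the fold minimum and the model: without the minimum the counts were 5981 and 3624, and limma on the deposited regularized log values gave 2013 and 853.

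The genes that rose most from morula to early ICM with no overlap included a receptor, matrix proteins and transcription factors. Spp1, which encodes the secreted matrix protein osteopontin, lay between 0 and 1.86 CPM (median 0) in morulae, at 32.5, 194, 35.9, 112 and 159 CPM in early ICMs and between 251 and 1630.1 CPM (median 982) in late ICMs, with the early ICMs given here and below in the order of embryos 1, 3, 7, 8 and 9. The stages did not overlap at either step. Spp1 was 229-fold higher by UMI sums of 3 and 529 (interval 77.9 to 1113; adjusted p = 1.61e-06), where the interval is the 95% interval of counting error alone, and rose again by 3.16 ± 0.75 from early to late ICM. Oaf lay at 0 in all morulae, at 11.5, 59.4, 36.8, 24.99 and 7.16 CPM in early ICMs and between 22.7 and 93.1 CPM (median 53.5) in late ICMs, so that no UMI was found in any morula and every early ICM held it. It was at least 59.2-fold higher (0 UMIs in the earlier group and 137 in the later; adjusted p = 1.43e-13) in early ICMs, taking 3 UMIs over the group as the floor. Lifr, the receptor subunit that binds leukemia inhibitory factor, lay between 0 and 2.30 CPM (median 0) in morulae, at 15.7, 67.3, 25.1, 3.12 and 5.37 CPM in early ICMs and between 10.3 and 96.1 CPM (median 74.8) in late ICMs. It was 72.6-fold higher by UMI sums of 2 and 112 (interval 19.6 to 607; adjusted p = 2.71e-06), with early ICM 3 above the rest. Egr1, an immediate-early zinc finger factor, lay between 0 and 1.23 CPM (median 0) in morulae and at 7.34, 29.1, 66.3, 15.6 and 15.2 CPM in early ICMs. It was 180.3-fold higher by UMI sums of 1 and 139 (interval 31.8 to 7173; adjusted p = 2.37e-08). At the first step the fitted log2 fold change of Lifr, 5.69, became 4.81 without early ICM 3 and 7.35 without morula 1. That of Egr1, 6.53, became 5.84 without early ICM 7 and 7.59 without morula 5. That of Spp1, 7.47, became 8.36 without morula 8.

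Other large rises concerned nucleotide salvage, a chromatin protein and an imprinted transcript. Upp1, a uridine phosphorylase, lay between 0 and 8.28 CPM (median 5.59) in morulae and at 193, 503, 212, 93.7 and 101 CPM in early ICMs. Upp1 rose by 5.61 ± 0.50 (adjusted p = 1.23e-17). Arid5b, a chromatin-associated DNA-binding protein, rose by 5.24 ± 0.41 and the maternally expressed imprinted long non-coding RNA Meg3 by 5.42 ± 0.77, each without overlap of the stages. Meg3 lay between 0 and 8.06 CPM (median 0.931) in morulae and at 47.2, 166, 102, 139 and 67.2 CPM in early ICMs. Ildr1, a protein of tricellular junctions, was 83.5-fold higher by UMI sums of 3 and 193 (interval 28.1 to 408; adjusted p = 1.44e-12), and the water channel gene Aqp8 was 129.7-fold higher by UMI sums of 1 and 100 (interval 22.8 to 5175; adjusted p = 0.00156). In Aqp8 the early ICMs were far apart, at 6.29, 84.1, 12.6, 2.08 and 2.69 CPM, embryo 3 holding most of the UMIs. Its call was lost without early ICM 3 (4.38, adjusted p = 0.0849). Meg3 gave 6.07 at the first step without morula 1.

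The steepest falls from morula to early ICM took genes almost to zero. Exoc3l4 lay between 13.5 and 48.2 CPM (median 34.0) in morulae and at 0 in all early ICMs, and was at least 53.2-fold lower (207 UMIs in the earlier group and 0 in the later; adjusted p = 1.53e-15). Foxe1, a forkhead transcription factor, lay between 56.9 and 185 CPM (median 95.0) in morulae and at 2.10, 0, 0, 4.17 and 2.69 CPM in early ICMs. It fell by 5.94 on the log2 scale (SE 0.54, adjusted p = 1.97e-17), with every morula far above every early ICM. Gucy2e, a membrane guanylate cyclase, was 138-fold lower by UMI sums of 179 and 1 (interval 24.5 to 5480.0; adjusted p = 3.27e-13), and Uncx, a homeobox gene, was 126-fold lower by UMI sums of 163 and 1 (interval 22.2 to 4993; adjusted p = 2.34e-11). Hcrt, which encodes the hypocretin neuropeptides, lay between 28.4 and 134 CPM (median 38.2) in morulae and at 0, 1.12, 0, 8.33 and 2.69 CPM in early ICMs. Hcrt fell by 4.54 (SE 0.55, adjusted p = 2.29e-11). Trim43c was 273-fold lower by UMI sums of 354 and 1 (interval 48.7 to 10808; adjusted p = 5.24e-07), but ranged from 1.04 to 257 CPM among the morulae and belongs to a family of near-identical copies, so its reads may have been split among them. Hcrt gave -5.72 at the first step without early ICM 8.

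From early to late ICM the genes that rose most with no overlap included cytoskeletal, lipid and stress proteins. Cnn2, an actin-binding calponin, lay between 12.4 and 31.8 CPM (median 21.9) in morulae, at 2.10, 7.85, 0.897, 4.17 and 1.79 CPM in early ICMs and between 11.4 and 271 CPM (median 47.6) in late ICMs. Its values in early ICMs were below those of both other stages, and it rose by 4.28 ± 0.70 after having fallen at the first step (-2.76 ± 0.75). H2-Oa, an MHC class II chain, lay at 3.14, 3.36, 2.69, 6.25 and 0.896 CPM in early ICMs and between 18.9 and 132 CPM (median 44.99) in late ICMs. H2-Oa rose by 4.22 ± 0.57 (adjusted p = 3.05e-09). Lpl, lipoprotein lipase, lay at 3.14, 3.36, 4.48, 0 and 1.79 CPM in early ICMs and between 5.16 and 83.7 CPM (median 33.4) in late ICMs. Lpl rose by 3.79 ± 0.71 (adjusted p = 1.26e-05). Txnip, an inhibitor of thioredoxin that also restrains glucose uptake, rose by 3.31 ± 0.62, the secreted protease gene Htra1 by 3.64 ± 0.60 and Hspb1, a small heat shock protein, by 3.35 ± 0.49. Hspb1 lay at 6.29, 12.3, 37.7, 32.3 and 16.1 CPM in early ICMs and between 103 and 508 CPM (median 156) in late ICMs, so the lowest late ICM was well above the highest early one. Large2 (3.89 ± 0.60) and Htra1 overlap a gene on the other strand, Pex16 and Fgfr2, and strand use in the counting is not stated, so their reads cannot be separated from those genes. Cnn2 gave 3.43 at the second step without late ICM 11.

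The steepest falls from early to late ICM, again among genes picked for no overlap, included a growth factor, a receptor and a nucleolar protein. Nrg1, the ligand neuregulin 1, lay at 34.6, 8.97, 28.7, 5.21 and 23.3 CPM in early ICMs and between 0 and 3.44 CPM (median 0) in late ICMs, and was 38.8-fold lower by UMI sums of 104 and 3 (interval 12.9 to 191; adjusted p = 8.97e-06). Ncl, nucleolin, which acts in ribosome production, lay between 204 and 271 CPM (median 244) in morulae, at 483, 576, 490.4, 614 and 718 CPM in early ICMs and between 93.2 and 169 CPM (median 124) in late ICMs. The 3 stages were fully separate, with a rise of 1.27 ± 0.14 and then a fall of 2.20 on the log2 scale (SE 0.14, adjusted p = 3.73e-27). Tbx20, a T-box transcription factor, lay at 80.7, 66.1, 95.0, 130.2 and 101 CPM in early ICMs and between 6.05 and 49.9 CPM (median 11.4) in late ICMs. Tbx20 fell by 2.48 (SE 0.34, adjusted p = 3.85e-09). The membrane-shaping protein Bin1 lay at 31.4, 24.7, 75.3, 37.5 and 43.0 CPM in early ICMs and between 1.39 and 14.8 CPM (median 4.95) in late ICMs. Bin1 fell by 2.78 (SE 0.49, adjusted p = 3.7e-06). Prelid2 (-2.55 ± 0.32) and the acyltransferase gene Mboat1 (-2.65 ± 0.41) also fell. So did Snapc5, a subunit of the complex that transcribes small nuclear RNAs (-2.26 ± 0.25).

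In the naive pluripotency network more genes rose than fell at both steps. Of its 32 tested genes, 16 rose, 1 fell and 15 did not pass from morula to early ICM (median log2 fold change 0.98, against 15.3% of all genes rising and 12.3% falling). From early to late ICM, 9 rose, 2 fell and 21 did not pass (median 0.03, against 7.28% and 5.93%). These shares over all genes apply to every list that follows. Without early ICM 3 and late ICM 20, 11 rose and 3 fell at the second step and the median was 0.49. Sox2, the HMG-box partner of Oct4, lay between 2.47 and 32.1 CPM (median 18.3) in morulae, at 131, 280.2, 256, 213 and 159 CPM in early ICMs and between 208 and 622 CPM (median 518) in late ICMs. Every early ICM was above every morula, and Sox2 rose at both steps (log2 fold change 3.77 ± 0.38, adjusted p = 3.51e-15, then log2 fold change 1.12 ± 0.32, adjusted p = 0.00463). Fgf4, the secreted ligand of the epiblast, lay between 8.06 and 27.2 CPM (median 16.5) in morulae, at 166, 318, 195, 127 and 94.9 CPM in early ICMs and between 225 and 804 CPM (median 550.5) in late ICMs, and rose by 3.45 ± 0.43 and then by 1.55 ± 0.37. The second rise of Sox2 dropped just under the fold minimum without early ICM 1 (1.00, adjusted p = 0.0235).

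Nanog was already present in morulae and rose only at the first step. It lay between 106 and 669.9 CPM (median 351) in morulae, at 612, 1261, 1062, 773 and 764 CPM in early ICMs and between 959.7 and 1479.8 CPM (median 1154) in late ICMs. The stages overlapped at both steps, with a rise of 1.47 ± 0.28 (adjusted p = 6.64e-06) and then 0.40 ± 0.28, which did not pass. Pou5f1 itself lay between 8.06 and 33.0 CPM (median 24.2) in morulae, at 27.2, 25.8, 87.9, 81.2 and 74.3 CPM in early ICMs and between 21.5 and 87.8 CPM (median 48.5) in late ICMs. Early ICMs 1 and 3 were at the level of the morulae and embryos 7, 8 and 9 were above all morulae (log2 fold change 1.44 ± 0.27, adjusted p = 3.85e-06). The second step gave -0.12 ± 0.25 (adjusted p = 0.774). With mothers of intact Oct4 the morula counts can include stored transcripts as well as new ones, which these counts cannot separate. The litters also held embryos with an mKO2-marked null Pou5f1 allele, which the labels do not tell apart. The part of the number of intact alleles in the Pou5f1 values could not be tested. Klf4 and Esrrb, both core factors of embryonic stem cells, rose at the first step by 1.34 ± 0.28 and 1.00 ± 0.25 and gave 0.03 ± 0.28 and -0.24 ± 0.24 at the second. The rise of Esrrb, at the fold minimum, was lost without morula 1, 6, 7, 8 or 10 or early ICM 7 or 9 (0.87 to 0.99, adjusted p from 0.00148 to 0.00606).

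Among the other members, Prdm14, a PR-domain repressor of differentiation genes, lay between 2.07 and 7.41 CPM (median 2.748) in morulae, at 31.4, 70.6, 56.5, 24.0 and 54.6 CPM in early ICMs and between 48.7 and 169.9 CPM (median 84.8) in late ICMs. Prdm14 rose by 3.58 ± 0.47 (adjusted p = 1.79e-10). The adhesion molecule gene Jam2 lay between 6.18 and 15.4 CPM (median 12.3) in morulae and at 106, 199.5, 158, 91.6 and 112 CPM in early ICMs. Jam2 rose by 3.55 ± 0.29 (adjusted p = 1.31e-19). Both were separate between morulae and early ICMs. Gdf3, a TGF-beta family ligand, rose at both steps without overlap at either (1.73 ± 0.37 and 1.60 ± 0.32). Zscan10, a zinc finger factor, lay at 9.43, 10.1, 2.69, 1.04 and 0.896 CPM in early ICMs and between 6.88 and 106 CPM (median 56.0) in late ICMs. Zscan10 rose by 3.52 ± 0.61 (adjusted p = 2.93e-06). L1td1, an RNA-binding protein, went up and then down, lying between 1.23 and 44.7 CPM (median 13.2) in morulae, at 111, 69.5, 90.6, 51.0 and 103 CPM in early ICMs and between 8.60 and 61.4 CPM (median 20.3) in late ICMs (2.12 ± 0.30 and -1.76 ± 0.30). Bmp4, a BMP ligand, was 32.4-fold higher by UMI sums of 1 and 25 (interval 5.31 to 1332; adjusted p = 0.00306) and then rose by 2.20 ± 0.61, with all 8 late ICMs at 8.37 CPM or more.

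**Figure D3:**
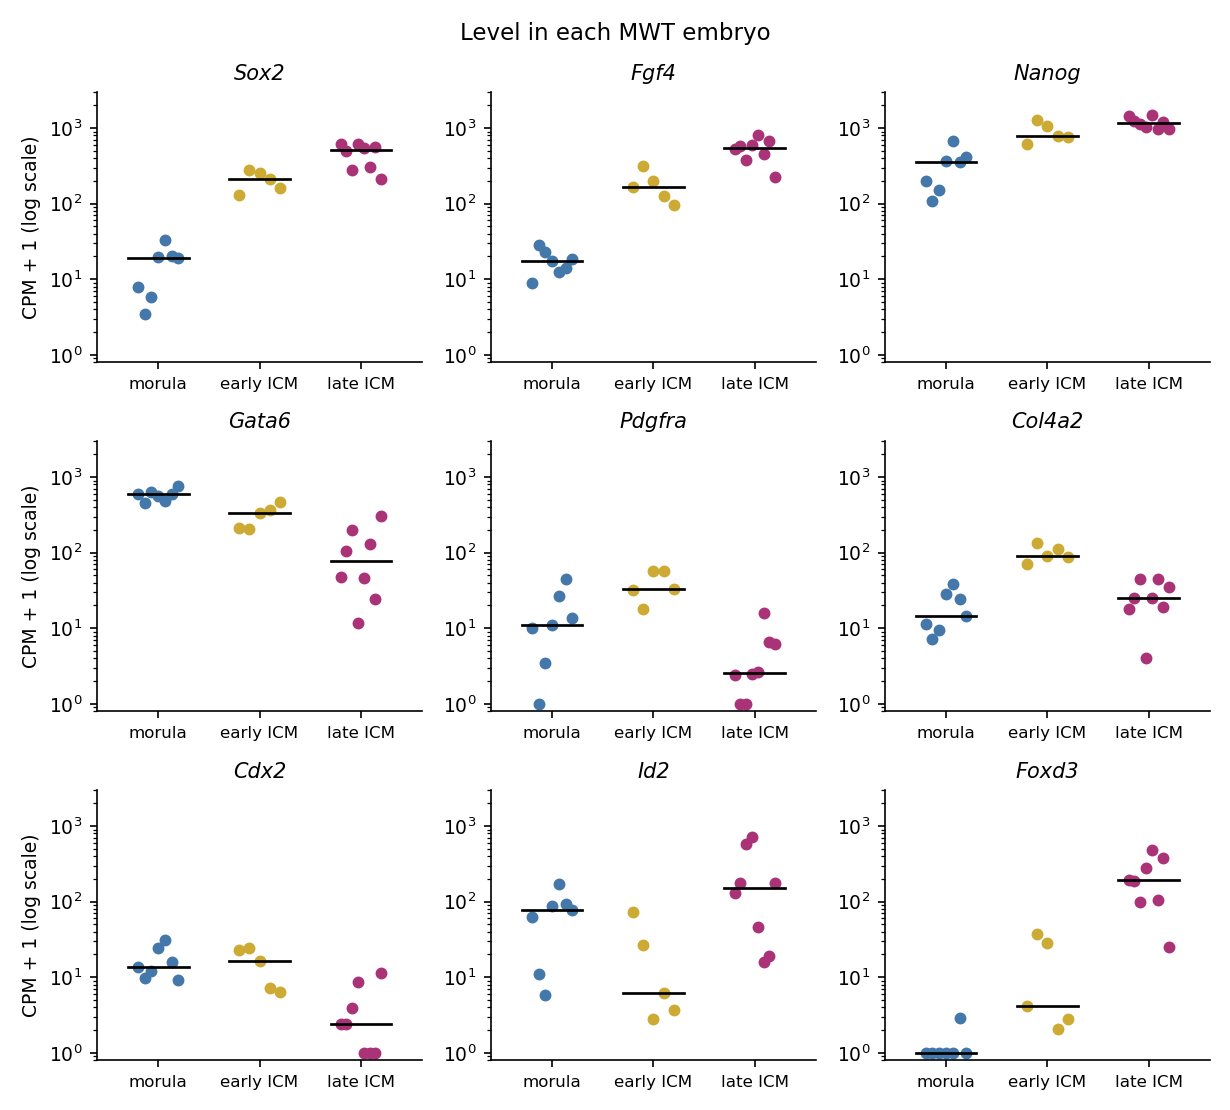
CPM plus 1 on a log axis for 9 genes in each MWT embryo by stage, with black bars at the medians. Sox2 and Fgf4 climbed at both steps, Gata6, Pdgfra and Cdx2 had their lowest medians in late ICMs, Col4a2 was highest in early ICMs, and Foxd3 was near 0 in morulae.

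Oct4 and Sox2 bind DNA together at a composite element made of CATTGT, any base and ATGCAA (on the other strand TTGCAT, any base and ACAATG), and Oct4 alone at the octamer ATGCAAAT (ATTTGCAT on the other strand). In RefSeq promoters of GRCm38.p6, taken from 250 bases before to 50 after the start site, the composite element was found in 4 of 32851 windows (0.0122%) and the octamer in 570 (1.74%). Of the 34 naive pluripotency genes 21 had a window, and 1 held the composite element (Nanog) and 1 the octamer (Zfp42). Both are shown because they are the only members with a window that holds these letters, with the match in capitals and the 250 bases before the start site printed on the strand of the gene. Positions count back from -1 at the base before the start site. The Nanog window is chr6:122707239-122707488 on the plus strand with the match from -74 to -62, and the Zfp42 window is chr8:43307010-43307259 on the minus strand with the match from -186 to -179. Another Nanog window, from a start site further downstream, holds the same match. A match is a description of letters and no binding was measured here.
Nanog: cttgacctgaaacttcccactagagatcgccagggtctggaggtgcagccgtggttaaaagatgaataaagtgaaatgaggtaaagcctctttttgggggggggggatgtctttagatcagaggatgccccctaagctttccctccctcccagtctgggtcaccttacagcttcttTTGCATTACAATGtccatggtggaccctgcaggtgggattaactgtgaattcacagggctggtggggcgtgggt
Zfp42: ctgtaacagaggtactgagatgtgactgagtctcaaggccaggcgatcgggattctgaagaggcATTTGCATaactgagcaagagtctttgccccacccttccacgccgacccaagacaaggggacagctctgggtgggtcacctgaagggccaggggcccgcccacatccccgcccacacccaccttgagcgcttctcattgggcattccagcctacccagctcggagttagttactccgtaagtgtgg
Zfp42, which encodes Rex1 and was chosen for its promoter after its values were seen, lay between 154 and 288 CPM (median 265) in morulae, at 355, 642, 551, 442 and 413 CPM in early ICMs and between 175 and 558 CPM (median 219) in late ICMs. Every early ICM was above every morula, but the changes of 0.96 ± 0.18 and -0.63 ± 0.18 stayed under the fold minimum. The first passed without early ICM 1 or 9 (1.01 to 1.05, adjusted p from 2.67e-06 to 7.55e-06) and with scaling by library totals alone (1.09, adjusted p = 4.72e-07), and the second without late ICMs 10 and 11 (-1.0004, adjusted p = 3.59e-06).

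Primitive endoderm genes moved in both directions at the first step, and at the second 7 fell. Of 19 tested, 11 rose, 5 fell and 3 did not pass from morula to early ICM (median 1.43), and 1 rose, 7 fell and 11 did not pass from early to late ICM (median -0.61). Gata6, the GATA factor that specifies this lineage, lay between 459.6 and 769 CPM (median 588) in morulae, at 214, 204, 329.9, 367 and 466 CPM in early ICMs and between 10.6 and 301 CPM (median 75.5) in late ICMs. It decreased by 0.88 on the log2 scale at the first step (SE 0.33), short of the fold minimum, and fell by 1.57 at the second (SE 0.32, adjusted p = 6.71e-05). Pdgfra, a receptor tyrosine kinase of the lineage, lay between 0 and 43.8 CPM (median 9.88) in morulae, at 31.4, 16.8, 55.6, 56.2 and 32.2 CPM in early ICMs and between 0 and 14.8 CPM (median 1.57) in late ICMs. It rose by 1.31 ± 0.52 and then fell by 3.18 on the log2 scale (SE 0.63, adjusted p = 3.45e-05), and the early and late ICMs did not overlap. Sox17, an endoderm HMG-box factor, lay between 0 and 1.04 CPM (median 0) in morulae, at 9.43, 3.36, 43.0, 0 and 0 CPM in early ICMs and between 0 and 5.58 CPM (median 1.57) in late ICMs. Its UMIs were mostly in early ICM 7, it was 38.9-fold higher by UMI sums of 2 and 60 (interval 10.3 to 329; adjusted p = 0.0112), and the second step gave -2.61 ± 1.23 (adjusted p = 0.107). Gata4, which follows Gata6 in the lineage, never exceeded 19.8 CPM in any embryo and passed at neither step. The first step of Sox17 did not pass without early ICM 7 (2.85, adjusted p = 0.278). That of Pdgfra did not pass without morula 1, 3, 5, 6 or 10 or early ICM 7 or 8 (1.11 to 1.27, adjusted p from 0.0504 to 0.0934). Pdgfra gave -4.09 at the second step without late ICM 15.

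Other members of the list encode secreted matrix and endocytic proteins, some of which were chosen after their values were seen. Sparc, a collagen-binding matrix protein, lay between 0 and 8.38 CPM (median 5.50) in morulae, at 68.1, 323, 129, 64.6 and 49.3 CPM in early ICMs and between 75.7 and 291 CPM (median 200.4) in late ICMs. Sparc rose by 4.80 ± 0.55 (adjusted p = 1.59e-12). Lama1, the laminin alpha 1 chain, was 64.9-fold higher by UMI sums of 2 and 100 (interval 17.5 to 543; adjusted p = 0.000415), with early ICM 3 at 72.9 CPM. Col4a2, a type IV collagen chain, lay between 6.18 and 37.3 CPM (median 13.7) in morulae, at 70.2, 132, 88.8, 109 and 87.8 CPM in early ICMs and between 3.03 and 44.4 CPM (median 24.3) in late ICMs. It rose by 2.40 ± 0.36 and fell back by 1.88 (SE 0.34, adjusted p = 6.48e-06), separate at both steps, although it overlaps Col4a1 on the other strand. Amn, amnionless, a partner of the endocytic receptor cubilin, lay between 7.33 and 27.2 CPM (median 10.98) in morulae and at 1.05, 0, 0, 4.17 and 0.896 CPM in early ICMs. Amn fell by 3.48 (SE 0.90, adjusted p = 0.00083). When early ICM 3 and late ICM 20 were both left out the second step still showed 7 falls, with a median of -0.16 in place of -0.61, and without late ICMs 10 and 11 there were 5. Without early ICM 3 the first step of Sparc gave 4.11, and that of Lama1 a fitted 4.27 in place of 5.55. Amn gave -4.56 at the first step without early ICM 8.

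More trophectoderm genes fell than rose from morula to early ICM, and late ICMs were uneven. Of 22 tested, 2 rose, 6 fell and 14 did not pass from morula to early ICM (median -0.79), and 6 rose, 1 fell and 15 did not pass from early to late ICM (median 0.71). Cdx2, the caudal-type factor of the trophectoderm, lay between 8.24 and 30.0 CPM (median 12.7) in morulae, at 22.01, 23.5, 15.2, 6.25 and 5.37 CPM in early ICMs and between 0 and 10.3 CPM (median 1.41) in late ICMs. It changed by -0.12 ± 0.45 at the first step and fell by 2.34 at the second (SE 0.58, adjusted p = 0.00101). Id2, an inhibitor of basic helix-loop-helix factors, lay between 4.90 and 169.8 CPM (median 76.0) in morulae, at 71.3, 25.8, 1.79, 5.21 and 2.69 CPM in early ICMs and between 14.8 and 716 CPM (median 152) in late ICMs. It rose at the second step (log2 fold change 3.46 ± 0.82, adjusted p = 0.000638), with late ICMs 10 and 11 at 570.5 and 716 CPM. Gata2, a GATA factor of trophoblast, lay at 0, 6.73, 1.79, 1.04 and 0 CPM in early ICMs and between 3.27 and 100.3 CPM (median 17.7) in late ICMs. Gata2 rose by 4.17 ± 0.89 (adjusted p = 0.000133), Krt19, a keratin, was 20.6-fold higher by UMI sums of 2 and 46 (interval 5.38 to 175; adjusted p = 0.00175), and Elf5, a trophoblast stem cell factor, was 42.9-fold higher by UMI sums of 1 and 48 (interval 7.34 to 1729.8; adjusted p = 0.00603). Elf5 was at 0 in 5 late ICMs, at 5.68 CPM in embryo 7 and at 33.0 and 31.8 CPM in embryos 10 and 11. The call of Elf5 was lost without those 2 embryos (1.66, adjusted p = 0.53). Without them 3 list members rose and 2 fell, and the median was 0.32. Id2 gave 4.77 at the second step without early ICM 1, and Gata2 gave 5.35 at the second step without early ICM 3.

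At the first step Klf6, a Kruppel-like factor, was with the homeobox gene Msx2 1 of the 2 list members that rose, lying between 0 and 23.8 CPM (median 9.16) in morulae and at 113, 139, 147, 127 and 163 CPM in early ICMs. Klf6 rose by 3.80 ± 0.43 (adjusted p = 7.47e-13). Gata3, a GATA factor of the trophectoderm, lay between 12.4 and 127 CPM (median 77.3) in morulae, at 78.6, 49.3, 2.69, 32.3 and 10.7 CPM in early ICMs and between 5.30 and 154 CPM (median 23.4) in late ICMs and passed at neither step (-1.09 ± 0.50 and 0.43 ± 0.51). Dlx3, a placental homeobox gene, was at least 7.71-fold lower (30 UMIs in the earlier group and 0 in the later; adjusted p = 0.00139). Krt7, a keratin of simple epithelia, was 7.71-fold lower by UMI sums of 30 and 3 (interval 2.40 to 39.5; adjusted p = 0.0349). Its call was lost without morula 6 or 10 or early ICM 3, 7 or 9 (-2.84 to -2.38, adjusted p from 0.0504 to 0.0821), and Gata3 passed as lower at the first step without early ICM 1 or morula 3 or 5. In samples of a whole ICM, fewer cells of a type and less RNA per cell cannot be told apart, which holds for every lineage marker above.

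Genes of the formative and post-implantation epiblast, 6 of which rose in late ICMs, are those turned on as the epiblast leaves the naive state. Of 13 tested, 2 rose, 4 fell and 7 did not pass at the first step (median -0.25), and 6 rose, 1 fell and 6 did not pass at the second (median 0.90). Without early ICM 3 and late ICM 20, 6 rose and 2 fell at the second step and the median was 1.42. Foxd3, a forkhead factor needed to maintain the epiblast, lay between 0 and 1.86 CPM (median 0) in morulae, at 3.14, 35.9, 27.8, 1.04 and 1.79 CPM in early ICMs and between 24.1 and 475 CPM (median 189.7) in late ICMs. Among early ICMs embryos 3 and 7 were high and the others near 0, and Foxd3 was 44.8-fold higher by UMI sums of 2 and 69 (interval 11.9 to 377; adjusted p = 0.00301) and then rose by 3.96 ± 0.69. Zic5, a zinc finger factor, lay at 1.05, 10.1, 1.79, 6.25 and 1.79 CPM in early ICMs and between 10.0 and 86.3 CPM (median 38.2) in late ICMs. Zic5 rose by 3.14 ± 0.64 (adjusted p = 5.61e-05). The HMG-box gene Sox4 rose by 2.95 ± 0.87. Otx2, a homeobox factor of the formative state, ran the other way at the second step, lying between 0 and 7.25 CPM (median 2.45) in morulae, at 46.1, 26.9, 49.3, 27.1 and 50.1 CPM in early ICMs and between 6.96 and 31.0 CPM (median 15.2) in late ICMs (3.72 ± 0.64 and -1.40 ± 0.52), with morulae and early ICMs fully separate. Dusp2, a MAP kinase phosphatase, was 14.6-fold lower by UMI sums of 19 and 1 (interval 2.33 to 609; adjusted p = 0.00764). The fall of Otx2 was lost without early ICM 1, 7 or 9 or late ICM 4, 7 or 19 (-1.35 to -1.29, adjusted p from 0.0549 to 0.0826). Foxd3 gave 4.60 at the second step without early ICM 3, and Sox4 gave 3.55 at the second step without early ICM 3. At the first step the fitted 4.96 of Foxd3 became 4.32 without early ICM 3 and 6.62 without morula 8.

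Oocyte and maternal-effect genes showed the largest share of falls of any list at the first step. Of 26 tested, 2 rose, 16 fell and 8 did not pass from morula to early ICM (median -2.54), and 5 rose, 0 fell and 21 did not pass from early to late ICM (median 0.00). Obox6, a homeobox gene, lay between 44.5 and 405 CPM (median 133) in morulae. It lay at 6.29, 2.24, 5.38, 20.8 and 10.7 CPM in early ICMs and between 7.10 and 46.6 CPM (median 19.02) in late ICMs. Obox6 fell by 4.46 (SE 0.55, adjusted p = 3.07e-11). Zp1, a zona pellucida protein, was at least 7.97-fold lower (31 UMIs in the earlier group and 0 in the later; adjusted p = 1.78e-06), and Btg4, an adaptor of maternal RNA decay, was at least 2.83-fold lower (11 UMIs in the earlier group and 0 in the later; adjusted p = 0.00881). Oosp1, an oocyte secreted protein, lay between 5.18 and 31.7 CPM (median 16.1) in morulae and at 0, 0, 0.897, 1.04 and 3.58 CPM in early ICMs. Oosp1 fell by 3.80 (SE 0.73, adjusted p = 1.13e-05). Ooep and Zfp57 rose at both steps, and Tle6, Khdc3 and Zbed3 rose at the second. Zbed3, a member of the subcortical maternal complex, lay between 1.04 and 29.7 CPM (median 4.66) in morulae, at 14.7, 14.6, 1.79, 2.08 and 0.896 CPM in early ICMs and between 17.2 and 47.3 CPM (median 29.0) in late ICMs. Zbed3 rose by 2.24 ± 0.47 (adjusted p = 0.000106). Of the 6 tested genes of the 2-cell state, 2 fell at the first step and 1 at the second. AF067063 was 94.0-fold lower by UMI sums of 122 and 1 (interval 16.6 to 3745; adjusted p = 6.48e-08), and Sp110, a nuclear body protein of a duplicated cluster, fell at both steps (-3.52 ± 0.46 and -2.57 ± 0.63). The fall of Btg4 was lost without morula 3 (-2.57, adjusted p = 0.0714). Oosp1 gave -4.82 at the first step without early ICM 9.

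Genes that respond to MAPK signaling did not move as 1 group. Of 22 tested, 7 rose, 8 fell and 7 did not pass at the first step (median -0.22), a step to embryos that the methods, but not the labels, describe as treated with the MEK inhibitor, and 5 rose, 1 fell and 16 did not pass at the second (median 0.83). Fos, an immediate-early factor, lay between 0 and 2.47 CPM (median 0.931) in morulae, at 6.29, 32.5, 49.3, 24.0 and 15.2 CPM in early ICMs and between 27.0 and 175 CPM (median 45.1) in late ICMs, and rose at both steps (4.60 ± 0.71 and 1.33 ± 0.42). Egr1 rose as given above. The second rise of Fos was lost without early ICM 1 or late ICM 10 (0.93 to 1.09, adjusted p from 0.0597 to 0.096). Ccnd1, cyclin D1, was 13.9-fold lower by UMI sums of 54 and 3 (interval 4.502 to 69.4; adjusted p = 0.00137), although it overlaps LTO1 on the other strand, and Spred3, a negative regulator of the pathway, was 13.9-fold lower by UMI sums of 36 and 2 (interval 3.57 to 119; adjusted p = 0.000361). Ptges, a prostaglandin E synthase, lay between 39.5 and 146 CPM (median 93.2) in morulae, at 36.7, 74.0, 5.38, 17.7 and 8.96 CPM in early ICMs and between 46.4 and 249 CPM (median 107) in late ICMs, down by 1.75 (SE 0.44, adjusted p = 0.000604) and then up by 2.19 ± 0.44. Without late ICMs 10 and 11, 2 members rose at the second step, and without early ICM 3 and late ICM 20, 8. Ptges gave -2.47 at the first step and 2.91 at the second without early ICM 3.

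In the LIF and STAT3 pathway both receptor subunits rose. Of 15 tested, 4 rose, 5 fell and 6 did not pass at the first step and 2 rose, 0 fell and 13 did not pass at the second (medians -0.21 and 0.69). Il6st, the gp130 subunit shared with other cytokine receptors, lay between 0 and 4.90 CPM (median 1.15) in morulae, at 12.6, 22.4, 22.4, 6.25 and 7.16 CPM in early ICMs and between 12.04 and 62.1 CPM (median 24.7) in late ICMs, and like Lifr it rose at both steps (3.09 ± 0.55 and 1.12 ± 0.39). Cish, a feedback inhibitor induced by STAT proteins, lay between 37.3 and 95.5 CPM (median 57.7) in morulae and at 7.34, 7.85, 3.59, 5.21 and 2.69 CPM in early ICMs. Cish fell by 3.50 (SE 0.46, adjusted p = 2.7e-10). The homeobox target gene Gbx2 fell by 2.11 (SE 0.68, adjusted p = 0.00824). The feedback inhibitor Socs3 fell by 1.46 (SE 0.58, adjusted p = 0.0332) and then gave 1.37 ± 0.57 (adjusted p = 0.0645). Its fall was lost without morula 3 or 5 or early ICM 7, 8 or 9 (-1.32 to -0.92, adjusted p from 0.0815 to 0.207), its later change passed without early ICM 1 or 3 or late ICM 20, and the second rise of Il6st was lost without early ICM 1, 8 or 9 or late ICM 7 or 11 (0.90 to 1.08, adjusted p from 0.0511 to 0.0964). The number rising at the second step was 4 without early ICM 3 and late ICM 20 and 1 without late ICMs 10 and 11. Gbx2 gave -2.90 at the first step without early ICM 7.

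In the Nodal and BMP pathway, of 20 tested 3 rose, 5 fell and 12 did not pass and then 2 rose, 0 fell and 18 did not pass (medians -0.02 and 0.41). Over all genes, 27.6% were called at the first step and 13.2% at the second. Id3, a BMP target, lay between 122 and 814 CPM (median 252) in morulae, at 58.7, 48.2, 184, 135 and 148 CPM in early ICMs and between 70.5 and 477 CPM (median 197) in late ICMs, down by 1.61 (SE 0.38, adjusted p = 0.000214) and up by 1.04 ± 0.36. Smad7, an inhibitory SMAD, lay between 21.98 and 73.6 CPM (median 44.7) in morulae and at 18.9, 15.7, 8.97, 19.8 and 7.16 CPM in early ICMs. Smad7 fell by 1.75 (SE 0.36, adjusted p = 3.05e-05), without overlap. Bmp8b, a ligand, was at least 3.85-fold lower (15 UMIs in the earlier group and 0 in the later; adjusted p = 0.00159), although it overlaps Ppie on the other strand. The inhibitory Smad6 was 6.70-fold higher by UMI sums of 2 and 15 (interval 1.56 to 60.4; adjusted p = 0.0263). It did not pass without early ICM 1, 3, 7 or 9 or late ICM 15 (1.76 to 2.10, adjusted p from 0.0602 to 0.131), nor did the rise of Id3 without early ICM 1 or 3 or late ICM 11 or 19 (0.82 to 0.89, adjusted p from 0.067 to 0.094). Without late ICMs 10 and 11, 1 member rose at the second step.

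In the Hippo pathway, which holds the coactivator YAP out of the nucleus of inner cells, the largest change at each step was in Amotl2, an angiomotin family protein that binds YAP. Of 23 tested, 4 rose, 9 fell and 10 did not pass (median -0.68), and then 6 rose, 2 fell and 15 did not pass (median 0.36). Amotl2 lay between 24.7 and 100.1 CPM (median 56.9) in morulae, at 3.14, 5.60, 3.59, 5.21 and 1.79 CPM in early ICMs and between 10.3 and 93.8 CPM (median 51.1) in late ICMs. Early ICMs were below all embryos of the other stages, down by 3.85 (SE 0.60, adjusted p = 6.12e-08) and up by 3.66 ± 0.61. Lats2, the kinase that restrains YAP, lay between 35.8 and 58.2 CPM (median 41.9) in morulae and at 8.38, 11.2, 4.48, 6.25 and 9.85 CPM in early ICMs. Lats2 fell by 2.46 (SE 0.33, adjusted p = 9.12e-10), again without overlap. Amot, angiomotin, changed by -0.40 ± 0.29 and then fell by 1.89 (SE 0.33, adjusted p = 4e-06). The YAP and TEAD targets Ccn2 (1.77 ± 0.48 and 1.51 ± 0.43) and Ccn1 (1.25 ± 0.62, not passing, and 1.78 ± 0.51) were higher in late ICMs. The second rise of Ccn2 was lost without late ICM 10 (1.01, adjusted p = 0.0597). Tead3, a DNA-binding partner of YAP, was 11.9-fold lower by UMI sums of 31 and 2 (interval 3.04 to 103; adjusted p = 0.00251) and then 10.7-fold higher by UMI sums of 2 and 24 (interval 2.66 to 93.7; adjusted p = 0.00946). Ccn2 gave 2.81 at the first step without morula 7.

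Junction and cavitation genes build the epithelium that seals the blastocyst cavity. Of 31 tested, 7 rose, 5 fell and 19 did not pass, and then 5 rose, 1 fell and 25 did not pass (medians 0.38 and -0.01). The claudins Cldn6 and Cldn4, which form the sealing strands of tight junctions, fell and then rose. Cldn6 lay between 33.1 and 107 CPM (median 61.0) in morulae, at 9.43, 11.2, 6.28, 8.33 and 0 CPM in early ICMs and between 4.24 and 84.8 CPM (median 36.0) in late ICMs (-3.34 ± 0.61 and 2.50 ± 0.62), and Cldn4 lay between 209.7 and 362 CPM (median 261) in morulae, at 119, 104, 42.1, 115 and 61.8 CPM in early ICMs and between 103 and 481 CPM (median 158) in late ICMs (-1.66 ± 0.29 and 1.34 ± 0.29). The rise of Cldn4 dropped under the fold minimum without late ICMs 10 and 11 (0.79, adjusted p = 0.0295), the embryos with the highest sums of trophectoderm markers. The third claudin named, Cldn3, gave 1.07 ± 0.64 and then rose by 2.15 ± 0.51. Ezr, the linker ezrin of the apical cortex, lay between 7.36 and 58.0 CPM (median 32.6) in morulae and at 209, 384, 438, 235 and 219 CPM in early ICMs. Ezr rose by 3.24 ± 0.34 (adjusted p = 6.79e-14). The desmosomal cadherin gene Dsg2 rose by 2.87 ± 0.42. Cldn3 gave 3.14 at the second step without early ICM 1, and Dsg2 gave 3.51 at the first step without morula 7.

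Glycolysis and oxidative phosphorylation both supply the embryo with ATP, and 27.6% of all genes were called at the first step. Of 22 glycolysis genes tested, 9 rose, 3 fell and 10 did not pass (median 0.73), and then 3 rose, 1 fell and 18 did not pass (median 0.16). The 2 lactate dehydrogenase subunits moved in opposite directions. Ldha lay between 0.916 and 7.25 CPM (median 2.30) in morulae and at 2.10, 8.97, 44.8, 55.2 and 46.6 CPM in early ICMs. Ldha rose by 3.33 ± 0.71 (adjusted p = 5.4e-05). Ldhb lay between 6.90 and 41.7 CPM (median 24.1) in morulae and at 4.19, 3.36, 0, 3.12 and 0.896 CPM in early ICMs. Ldhb fell by 3.25 (SE 0.61, adjusted p = 4.99e-06). Early ICM 1 held Ldha at the level of the morulae and embryo 3 just above them. The glucose transporter gene Slc2a1 rose at both steps (1.85 ± 0.35 and 1.21 ± 0.32), as did Pfkp, a phosphofructokinase that overlaps Pitrm1 on the other strand (1.54 ± 0.62 and 2.79 ± 0.48), and Gapdh (1.06 ± 0.39 and 1.82 ± 0.40). The first rise of Pfkp was lost without morula 1, 5 or 8 or early ICM 3 or 7 (0.91 to 1.44, adjusted p from 0.076 to 0.301) and that of Gapdh without morula 1, 3 or 5 (0.87 to 0.93, adjusted p from 0.0554 to 0.0649). Gapdh lay at 357, 334, 394, 277 and 386 CPM in early ICMs and between 748 and 1847 CPM (median 1172) in late ICMs, so the ICM stages did not overlap in a gene often used as a constant reference. Without early ICM 3 and late ICM 20, 3 glycolysis genes fell at the second step and the median was -0.13. Pfkp gave 3.42 at the second step without early ICM 3.

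Of 75 nuclear genes of oxidative phosphorylation, 12 rose, 4 fell and 59 did not pass and then 7 rose, 3 fell and 65 did not pass (medians 0.14 and 0.24), against 27.6% and 13.2% of all genes called at the steps. Cox8a, a subunit of cytochrome c oxidase, dipped in early ICMs, lying between 1575 and 2162 CPM (median 1828) in morulae, at 681, 568, 626, 552 and 513 CPM in early ICMs and between 1294 and 1780.4 CPM (median 1431) in late ICMs (-1.61 ± 0.15 and 1.32 ± 0.15). Of the 13 genes of the mitochondrial genome, 3 rose, 1 fell and 9 did not pass and then 4 rose, 0 fell and 9 did not pass. The cytochrome oxidase subunit mt-Co3 lay between 136 and 371 CPM (median 246) in morulae, at 1073, 1185, 1313, 808 and 619.7 CPM in early ICMs and between 1596 and 3036 CPM (median 2344) in late ICMs, separate at both steps (2.06 ± 0.24 and 1.15 ± 0.24). Among 79 cytosolic ribosomal protein genes, 1 rose, 4 fell and 74 did not pass and then 1 rose, 1 fell and 77 did not pass, below the share over all genes at each step. Rps23, which passed at both, fell and recovered (-1.40 ± 0.15 and 1.15 ± 0.14), and its reads may be shared with processed pseudogenes. Of 25 cholesterol synthesis genes, 3 rose, 5 fell and 17 did not pass and then 3 rose, 2 fell and 20 did not pass. Without early ICM 3 and late ICM 20, 2 cholesterol genes rose and 4 fell at the second step, and 5 nuclear genes of oxidative phosphorylation fell.

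Cell cycle regulators drive the passage between phases. Of 25 tested, 3 rose, 8 fell and 14 did not pass (median -0.14, against 15.3% of all genes rising and 12.3% falling), and then 1 rose, 0 fell and 24 did not pass (median 0.23). Ccne1, cyclin E1, lay between 222 and 372 CPM (median 266) in morulae, at 19.9, 26.9, 26.0, 35.4 and 18.8 CPM in early ICMs and between 3.44 and 47.3 CPM (median 27.2) in late ICMs. Ccne1 fell by 3.45 (SE 0.34, adjusted p = 2.41e-15), without overlap of morulae and early ICMs. Cdkn1b, the p27 inhibitor of cyclin-dependent kinases, lay between 0 and 2.07 CPM (median 1.10) in morulae and at 3.14, 17.9, 6.28, 9.37 and 3.58 CPM in early ICMs. Cdkn1b rose by 2.94 ± 0.57 (adjusted p = 1.04e-05). Of 26 DNA replication genes, 1 rose, 2 fell and 23 did not pass and then 0 rose, 3 fell and 23 did not pass. The licensing factor Cdc6 lay at 39.8, 47.1, 43.0, 49.99 and 59.1 CPM in early ICMs and between 6.53 and 29.2 CPM (median 17.6) in late ICMs. Cdc6 fell by 1.497 (SE 0.26, adjusted p = 3.14e-06), without overlap.

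Regulators of DNA methylation write, copy and remove the mark. Of 13 tested, 6 rose, 1 fell and 6 did not pass (median 1.39), and then 2 rose, 0 fell and 11 did not pass (median 0.09). Tet1, a dioxygenase that oxidizes methylcytosine, lay between 31.1 and 75.1 CPM (median 62.1) in morulae, at 244, 543, 377, 273 and 230.1 CPM in early ICMs and between 196 and 389 CPM (median 299.5) in late ICMs. Tet1 rose by 2.53 ± 0.21 (adjusted p = 1.08e-19). Uhrf1, which brings the maintenance methyltransferase to replicating DNA, lay between 2.47 and 24.8 CPM (median 13.2) in morulae and at 63.9, 101, 110.3, 109 and 81.5 CPM in early ICMs. Uhrf1 rose by 2.82 ± 0.34 (adjusted p = 7.98e-12). Both were separate from the morulae. Dnmt1, the maintenance enzyme itself, lay between 16.5 and 44.0 CPM (median 29.7) in morulae, at 36.7, 32.5, 43.0, 42.7 and 49.3 CPM in early ICMs and between 58.2 and 109 CPM (median 90.5) in late ICMs, gave 0.50 ± 0.17 at the first step and rose at the second (log2 fold change 1.08 ± 0.17, adjusted p = 1.23e-07). Leaving out either pair of embryos, early ICM 3 with late ICM 20 or late ICMs 10 and 11, left no list member called at the second step. Of 26 Polycomb genes, 1 rose, 4 fell and 21 did not pass and then 2 rose, 0 fell and 24 did not pass (medians -0.24 and 0.15). Pcgf1, a subunit of a variant PRC1 complex, fell by 2.12 (SE 0.37, adjusted p = 9.8e-07), and Pcgf2 rose by 1.71 ± 0.40 at the second step.

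Targets of the integrated stress response were the list with the largest share called in late ICMs. Of 20 tested, 5 rose, 3 fell and 12 did not pass at the first step (median 0.40) and 11 rose, 1 fell and 8 did not pass at the second (median 1.26). Asns, asparagine synthetase, lay between 7.36 and 19.2 CPM (median 12.7) in morulae, at 55.5, 252, 87.9, 28.1 and 27.8 CPM in early ICMs and between 22.4 and 424 CPM (median 284) in late ICMs. It rose at both steps (2.72 ± 0.57 and 1.55 ± 0.49), with early ICM 3 within the range of the late ICMs and above the other early ICMs. The second rise of Asns was lost without early ICM 8 or 9 (1.32, adjusted p from 0.0521 to 0.0558). Nupr1, a stress-induced chromatin protein, lay at 0, 59.4, 7.17, 2.08 and 0 CPM in early ICMs and between 1.72 and 276 CPM (median 138) in late ICMs. Nupr1 rose by 3.46 ± 0.61 (adjusted p = 4.34e-06), again with embryo 3 above the other early ICMs. Chac1, a glutathione-degrading enzyme, lay at 1.05, 2.24, 1.79, 0 and 0.896 CPM in early ICMs and between 1.72 and 84.8 CPM (median 10.5) in late ICMs. Chac1 rose by 4.01 ± 0.77 (adjusted p = 2.2e-05). Cebpb, a bZIP factor, lay between 19.6 and 30.7 CPM (median 23.8) in morulae, at 6.29, 8.97, 9.86, 6.25 and 5.37 CPM in early ICMs and between 10.3 and 78.7 CPM (median 32.3) in late ICMs and was lower in early ICMs than at both other stages (-1.70 ± 0.41 and 2.25 ± 0.40), although it overlaps Tmem189 on the other strand. The first-step median was 0.10 without early ICM 3 and late ICM 20. At the second step, without the same embryos, 12 members rose, and without late ICMs 10 and 11, 10. Culture time also differed between these stages, and its part in the result cannot be told apart from that of stage. Asns gave 1.88 at the first step and 2.39 at the second without early ICM 3, Nupr1 gave 5.84 at the second step without early ICM 3, and Chac1 gave 3.23 at the second step without late ICM 11.

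Heat shock and immediate early genes gave 16 tested, of which 4 rose, 3 fell and 9 did not pass and then 6 rose, 1 fell and 9 did not pass (medians 0.31 and 0.50). Hspa1b, an inducible HSP70, lay between 22.8 and 119.7 CPM (median 40.04) in morulae, at 3.14, 5.60, 1.79, 14.6 and 4.48 CPM in early ICMs and between 1.72 and 116 CPM (median 38.1) in late ICMs (-3.23 ± 0.68 and 3.07 ± 0.68). Its near-identical neighbor Hspa1a showed the same dip, and reads of the pair may have been split between them. Gadd45g, a stress sensor, rose at both steps (3.33 ± 0.59 and 2.41 ± 0.44). Of 17 p53 targets, 0 rose, 0 fell and 17 did not pass and then 1 rose, 2 fell and 14 did not pass, with 5 falling without early ICM 3 and late ICM 20. Gdf15, a stress cytokine, rose by 3.31 ± 0.71 and Pmaip1, the apoptosis effector Noxa, fell by 1.95 (SE 0.54, adjusted p = 0.00384). Hspa1b gave -3.87 at the first step and 3.71 at the second without early ICM 8, and Gadd45g gave 2.51 at the first step and 3.23 at the second without early ICM 3.

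**Figure D4:**
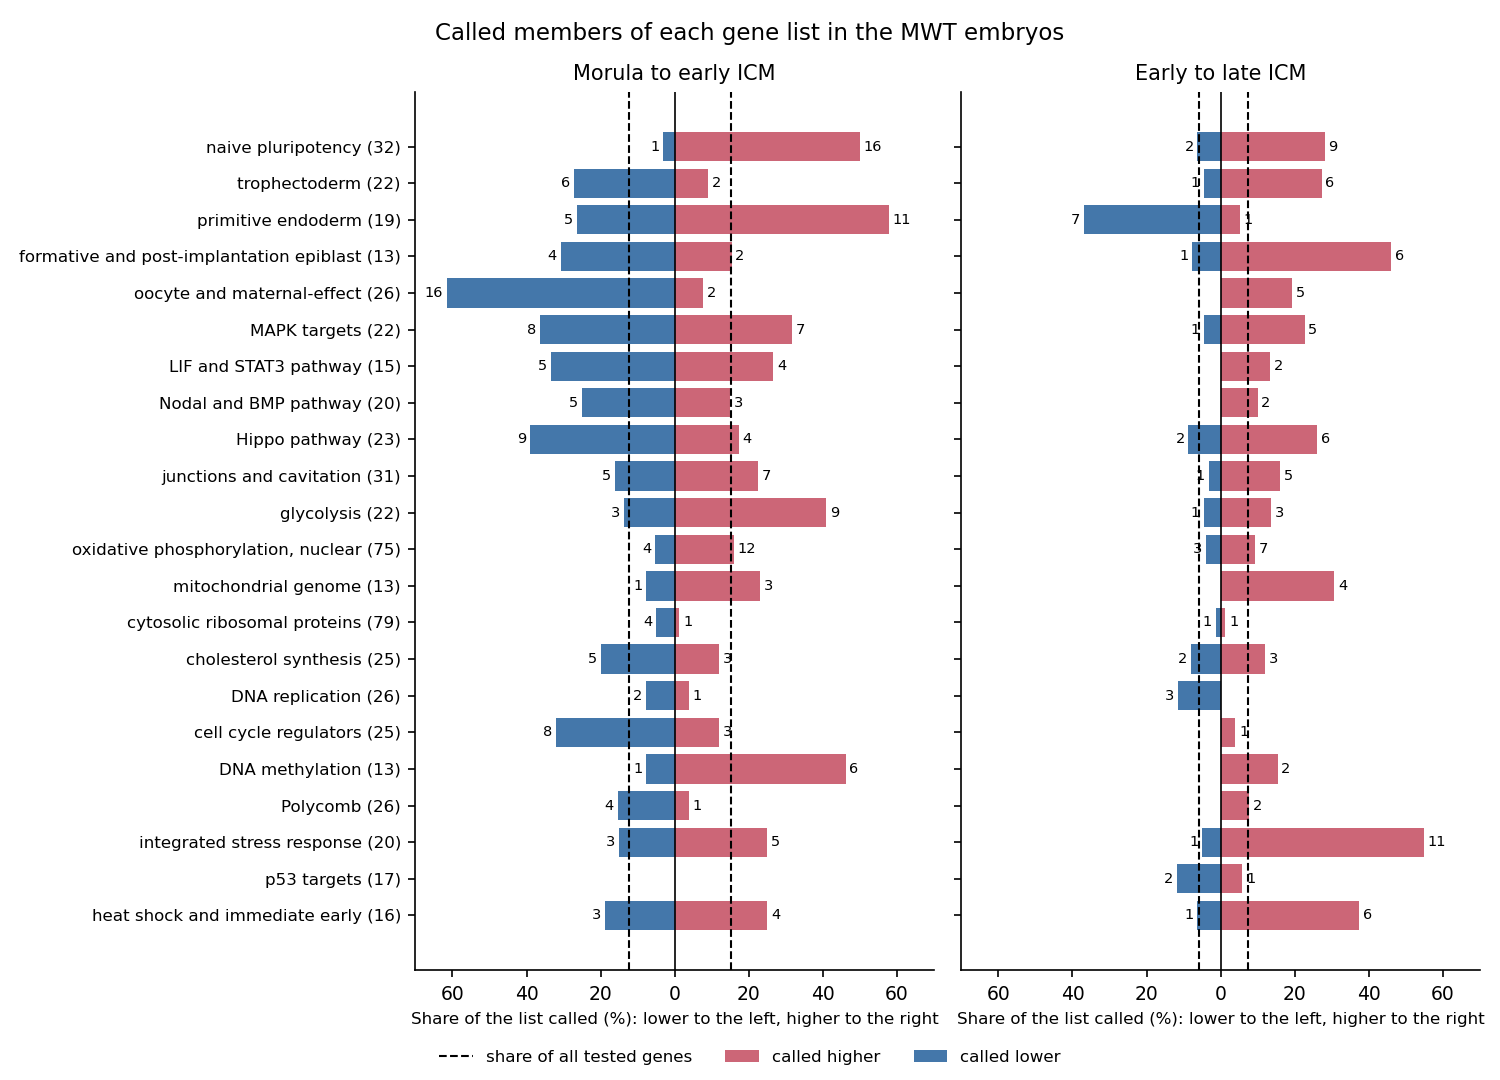
Bars give the share of the tested members of each gene list called higher (right) or lower (left) in MWT embryos at each step, with the number of genes beside each bar and the number tested in brackets. Dashed lines mark the share over all tested genes, 15.3% and 12.3% at the first step and 7.28% and 5.93% at the second. The oocyte list reached 16 falls at the first step and the stress response list 11 rises at the second.

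The 2 steps share the 5 early ICMs, so values of genes called at both are set side by side only. Tcf7l1, a repressor of the Wnt pathway, lay between 0 and 2.20 CPM (median 1.15) in morulae, at 5.24, 74.0, 11.7, 0 and 0 CPM in early ICMs and between 27.5 and 387 CPM (median 253) in late ICMs (3.86 ± 0.89 and 3.71 ± 0.54), with early ICM 3 far above the other early ICMs. The first rise of Tcf7l1 was lost without early ICM 3 (1.88, adjusted p = 0.169). Alppl2, an embryonic alkaline phosphatase, fell at both, lying between 1602 and 2263 CPM (median 1798) in morulae, at 224, 43.7, 136, 571 and 466 CPM in early ICMs and between 2.79 and 105 CPM (median 29.1) in late ICMs (-2.69 ± 0.54 and -2.82 ± 0.52). Its late ICM maximum was below every morula. Tnfsf13b, the cytokine BAFF, lay between 39.5 and 146 CPM (median 62.3) in morulae, at 1.05, 1.12, 1.79, 15.6 and 5.37 CPM in early ICMs and between 0 and 1.42 CPM (median 0) in late ICMs, down by 3.91 (SE 0.50, adjusted p = 8.15e-11) and then 13.98-fold lower by UMI sums of 25 and 2 (interval 3.49 to 122; adjusted p = 0.00917), a call lost without early ICM 8 (-2.38, adjusted p = 0.15). Clec2i, a C-type lectin, peaked in early ICMs, lying between 0 and 2.20 CPM (median 0) in morulae, at 4.19, 24.7, 24.2, 43.7 and 19.7 CPM in early ICMs and between 1.39 and 7.57 CPM (median 2.45) in late ICMs, 75.9-fold higher by UMI sums of 2 and 117 (interval 20.5 to 634; adjusted p = 9.82e-12) and then down by 2.73 (SE 0.50, adjusted p = 8.96e-06). Mgst2, a glutathione transferase, peaked likewise (4.67 ± 0.76 and -2.56 ± 0.61). The opposite course, a trough in early ICMs, was shown by Eras, a Ras-like gene of embryonic stem cells that overlaps Pcsk1n on the other strand, lying between 1.10 and 18.4 CPM (median 9.32) in morulae, at 1.05, 0, 0.897, 0 and 0 CPM in early ICMs and between 0 and 16.7 CPM (median 4.13) in late ICMs, 21.2-fold lower by UMI sums of 55 and 2 (interval 5.60 to 179; adjusted p = 0.000188) and then 17.4-fold higher by UMI sums of 2 and 39 (interval 4.51 to 149; adjusted p = 0.00127). Mapk8ip1, a JNK scaffold, had no UMI in any early ICM, so it was at least 7.71-fold lower (30 UMIs in the earlier group and 0 in the later; adjusted p = 5.73e-05) and then at least 7.15-fold higher (0 UMIs in the earlier group and 24 in the later; adjusted p = 0.000283). Tcf7l1 gave 5.69 at the second step without early ICM 3, Tnfsf13b gave -4.90 at the first step without early ICM 8, and Mgst2 gave -3.65 at the second step without late ICM 20.

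The same steps were run in the Oct4 Ctrl embryos, which lacked maternal Oct4, to ask where development with and without the maternal supply differed. The labels give no collection or library date, so any batch between the MWT and Oct4 Ctrl litters cannot be told apart from the maternal genotype. The groups also differ in the zygotic alleles, and the tissue and treatment labels of the MWT ICMs are those of other stages, so a difference in zygotic genotype, age or treatment cannot be told apart from it either. Oct4 Ctrl embryos changed 4060 genes at the first step (29.2% of those tested) and 2184 at the second (15.7%). At the first step 1388 genes rose in both, which is 65.0% of the MWT list and 68.5% of the Oct4 Ctrl list, and 1324 fell in both (77.3% and 65.1%). At the second step 613 rose in both (60.5% and 46.6%) and 413 fell in both, of 826 that fell in MWT and 869 in Oct4 Ctrl. The difference itself was then tested as an interaction. It passed for 83 genes at the first step (0.596% of those tested), 57 with the higher fold change in MWT and 26 with the lower, and for 1 gene at the second (0.00718%). At an unadjusted p below 0.05 there were 1247 and 1127 genes, and DESeq2 called 91 and 15. With all libraries thinned to 1 depth the first count was 30, and without single embryos it ran from 62 to 106.

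Hippo pathway genes stood among the lower differences. Amotl2 was at 56.3 ± 23.2, 3.87 ± 1.56 and 49.9 ± 31.4 CPM (mean ± SD) in MWT morulae, early ICMs and late ICMs, and at 58.3 ± 17.5, 67.2 ± 25.2 and 111 ± 84.5 CPM in the 8 Oct4 Ctrl embryos of each stage. It fell at the first step in MWT and not in Oct4 Ctrl (difference in log2 fold change -4.06 ± 0.70, adjusted p = 0.000159). Ccn2, a secreted YAP target, was at 17.6 ± 24.8 and 61.6 ± 29.6 CPM in MWT morulae and early ICMs and at 16.0 ± 11.99 and 340.0 ± 65.4 CPM in Oct4 Ctrl (difference in log2 fold change -2.64 ± 0.65, adjusted p = 0.0194). Lats2 was at 44.4 ± 7.15 and 8.03 ± 2.71 CPM and 34.4 ± 7.00 and 20.9 ± 6.47 CPM (difference in log2 fold change -1.74 ± 0.42, adjusted p = 0.0154). These were the 3 of 23 Hippo genes that passed. The difference in Ccn2 did not pass without morula 7 or early ICM 1 (-2.37 to -1.60, adjusted p from 0.0715 to 0.453), nor that in Lats2 without early ICM 7 or 8 (-1.66 to -1.58, adjusted p from 0.0512 to 0.0541). The other lower differences named by rule were Zfp599 (difference in log2 fold change -1.84 ± 0.33, adjusted p = 0.00027), the RNA exosome partner gene Zfc3h1 (difference in log2 fold change -1.99 ± 0.48, adjusted p = 0.0145) and the mitochondrial phosphatase gene Ppm1k (difference in log2 fold change -1.92 ± 0.45, adjusted p = 0.0102). Zfc3h1 did not pass without morula 8 (-1.83, adjusted p = 0.0553).

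Among the higher differences, Trpv2, a cation channel, was at 5.05 ± 2.29, 25.3 ± 7.76 and 5.14 ± 3.13 CPM in MWT and at 12.1 ± 5.33, 9.94 ± 2.48 and 5.92 ± 9.60 CPM in Oct4 Ctrl embryos (difference in log2 fold change 2.58 ± 0.59, adjusted p = 0.008). Dnajb14, a J-domain chaperone of the endoplasmic reticulum, lay between 34.3 and 108 CPM (median 48.3) in morulae, at 144, 159, 52.9, 122.9 and 156 CPM in early ICMs and between 35.8 and 98.4 CPM (median 59.0) in late ICMs in MWT embryos, against means of 103 ± 29.3, 64.3 ± 14.1 and 39.2 ± 13.4 CPM in Oct4 Ctrl (difference in log2 fold change 1.85 ± 0.31, adjusted p = 6.89e-05). Slx1b, a structure-specific nuclease subunit, differed by 2.16 ± 0.38, although it overlaps Bola2 on the other strand, Rmi2, of the dissolvasome complex, by 2.15 ± 0.39, Slfn5 by 2.10 ± 0.41 and Mettl7a3 by 1.88 ± 0.40. The difference in Mettl7a3 did not pass without early ICM 3 and late ICM 20 (1.52, adjusted p = 0.0506). With thinning to 1 depth it did not pass either (1.81, adjusted p = 0.181), nor did those in Trpv2, Ccn2, Lats2, Zfc3h1 and Ppm1k (adjusted p from 0.0569 to 0.481). In Slx1b, Rmi2, Slfn5, Mettl7a3 and Dnajb14 early ICM 7 was the lowest of the 5 MWT early ICMs, and for each gene the MWT morulae had a lower mean than the Oct4 Ctrl morulae.

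**Figure D5:**
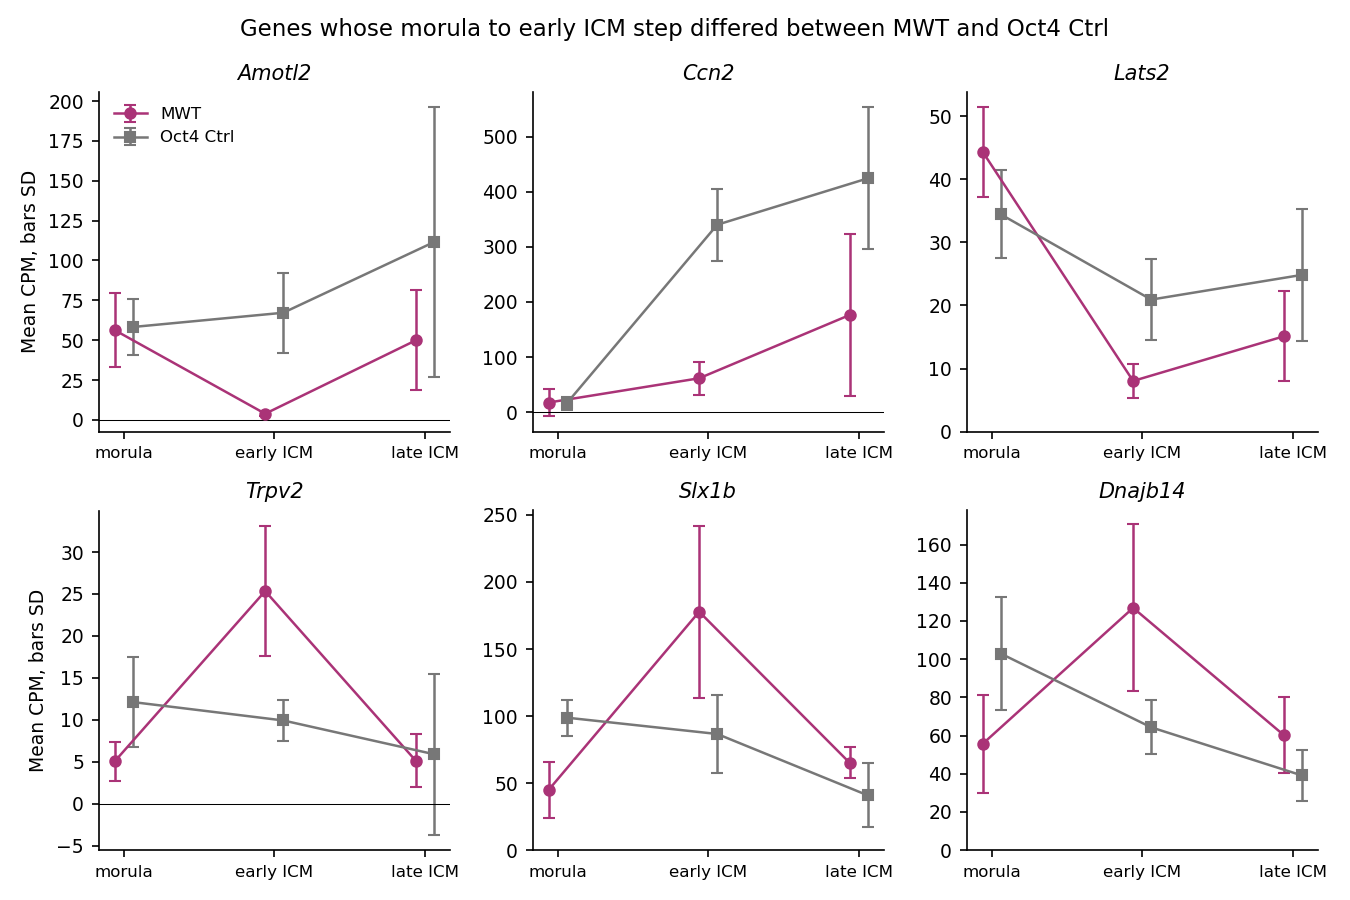
Mean CPM with SD bars by stage in MWT (7, 5 and 8 embryos) and Oct4 Ctrl (8 at each stage) for 6 genes whose first step differed. From morula to early ICM the mean of Amotl2 dropped in MWT alone, Lats2 dropped further and Ccn2 rose less in MWT, and Trpv2, Slx1b and Dnajb14 peaked in MWT early ICMs.

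At the second step Sox17 showed a difference that passed with some tools only. Its means were 0.279 ± 0.477, 11.2 ± 18.2 and 1.74 ± 1.74 CPM in MWT and 0 ± 0, 7.29 ± 7.93 and 80.3 ± 139 CPM in Oct4 Ctrl embryos (difference in log2 fold change -6.05 ± 1.39, adjusted p = 0.077 by edgeR). It did not pass in edgeR, passed with DESeq2 (-6.11, adjusted p = 0.0429) and in edgeR with no filter on low counts (-6.07, adjusted p = 0.0147), and was -4.19 (adjusted p = 0.575) without early ICM 7. Of the 19 primitive endoderm genes 7 rose and 3 fell from early to late ICM in Oct4 Ctrl, against 1 and 7 in MWT, and none of the 19 passed the interaction in edgeR with the filter, whereas DESeq2 and edgeR with no filter called Sox17 alone of them. The 1 gene that passed was the predicted gene Gm28438, named because it was alone and after its values were seen, at 16.7 ± 4.19, 3.66 ± 1.94 and 0.179 ± 0.507 CPM in MWT and 13.9 ± 2.96, 2.00 ± 1.85 and 5.31 ± 4.81 CPM in Oct4 Ctrl (difference in log2 fold change -4.97 ± 1.00, adjusted p = 0.0307). It did not pass without early ICM 1 or 9 or late ICM 7, 11, 14, 15, 19 or 20 (-4.89 to -4.80, adjusted p from 0.0504 to 0.0952). Gm28438 gave -6.15 at the second step without late ICM 10.

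Embryos of both sexes were present at each stage by their own transcripts. Y-linked genes gave at least 10 UMIs in 2 morulae (62 to 91 UMIs), 2 early ICMs (184 to 214) and 3 late ICMs (112 to 131), and these 7 embryos held Xist, the non-coding RNA that silences an X chromosome, at 8.38 CPM or less. In the other 13 embryos Xist lay between 315 and 409 CPM in 5 morulae, 634 and 824 CPM in 3 early ICMs and 109 and 278 CPM in 5 late ICMs. No female late ICM reached the lowest female early ICM. Rlim, an X-linked activator of Xist, was the 1 of 6 X inactivation genes called from early to late ICM (log2 fold change -1.08 ± 0.18, adjusted p = 8.43e-07). Its fold change dropped under the minimum without early ICM 8 or 9 or late ICM 14 (-0.98 to -0.97, adjusted p from 8.74e-06 to 3.99e-05).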

How the data were processed

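Single morulae and single immunosurgically isolated ICMs were sequenced as 3′-end libraries with unique molecular identifiers and spike-in RNA. The authors extracted the molecular identifiers with UMI-tools, trimmed reads with Cutadapt, aligned them to mm10 with TopHat2 and to the spike-in sequences with Bowtie2, assigned them to GENCODE genes with featureCounts and counted unique transcripts with TRUmiCount. The strand setting of the counting is not given in the sources used here. The deposited counts are UMIs per gene for all embryos of the series, with 29022 genes and 525755 to 1344035 UMIs per embryo. The deposited log2 values are DESeq2 regularized logs of 15747 genes and served only in 1 alternative.

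Samples were grouped by their titles. The 13923 genes with a UMI in 50% or more of the embryos of some stage were fitted with edgeR 4.0.16 (R 4.3.3), using TMM factors, 16 groups by line, genotype and stage over all embryos, and quasi-likelihood tests. The study's own methods used DESeq2 for its tests, which here is an alternative (version 1.42.0), as is limma 3.58.1. Calls needed a Benjamini-Hochberg adjusted p below 0.05 and a change of 1 or more in either direction on the log2 scale. Standard errors were taken as the absolute log2 fold change over the square root of F. CPM values are UMIs relative to the TMM-scaled library size. The fit was tested on simulated data. The embryos are separate samples, but the labels do not say which share a litter, so p-values measure the spread between these samples.

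Embryos, gene lists and tests were chosen with earlier results of these data known. Named genes were, for each step, the 12 highest and 12 lowest fold changes among called genes with at least 20 CPM on average in the higher group and no overlap of the groups, 6 genes for each course over both steps, 6 for each direction of the difference from Oct4 Ctrl, the 4 largest changes of each list at each step, and Pou5f1, Sox2, Nanog, Klf4, Esrrb, Cdx2, Gata3, Gata6, Sox17, Otx2 and Xist. The text describes some of these genes, chosen for a role that could be stated, and not every gene the rule names. Fgf4, Gata4, Ccn2 and Lats2 beside the steps, and other list members given only by direction, were chosen after their values were seen. Where a group held no UMI of a gene, 3 UMIs over the group were taken as the floor, and where it held 1 to 3 the fold is the ratio of summed UMIs scaled by library size, with its exact 95% interval. Intervals and floors cover counting error only. Promoters are RefSeq windows on GRCm38.p6 (mm10).

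Alternatives were DESeq2, other scalings, other filters, no fold minimum, the MWT embryos alone, limma on the regularized logs, thinning to 1 depth, a block by embryo number and leaving out each embryo. Leaving out early ICM 3 with late ICM 20, and late ICMs 10 with 11, was added after seeing the data.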

Additional observations from a re-analysis of the deposited data

Results flagged for a closer look

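Among 260 sets of values of 1 stage, 21 had an embryo far from its nearest neighbor. The distance took up more of the stage's range than Dixon's 95% value allows, where chance gives about 5% for independent, normally distributed values. The sets were mostly untransformed CPM of named genes in the same embryos, so that rate need not hold here. Early ICM 3 accounted for 6 of these 21. It was above the other early ICMs in Aqp8 (84.1 CPM), Asns (252 CPM), Lama1 (72.9 CPM), Nupr1 (59.4 CPM), Tcf7l1 (74.0 CPM) and Upp1 (503 CPM). The same embryo lay nearest the late ICMs in the principal component analysis. Early ICM 7 stood above the others in Sox17, at 43.0 CPM.

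Late ICM 11 stood apart in Chac1 (84.8 CPM), Cnn2 (271 CPM), Smad7 (56.0 CPM) and Zic5 (86.3 CPM), and late ICM 10 in Ccn2 (537 CPM) and Gadd45g (646 CPM). These were also the embryos with the highest sums of trophectoderm markers, and the part of that was not tested. Late ICM 14 was high in Otx2 (31.0 CPM) and Prdm14 (169.9 CPM), and late ICM 15 was the deepest of its stage at 894465 UMIs. Among morulae single embryos were high in Ccn2 (morula 7, 72.5 CPM), Ccnd1 (morula 6, 23.1 CPM), Uncx (morula 5, 85.8 CPM), Zbed3 (morula 3, 29.7 CPM) and Rmi2 (morula 10, 45.8 CPM).

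The change from morula to early ICM differed between MWT and Oct4 Ctrl embryos by the interaction test in 12 of the named genes. On the log2 scale, MWT minus Oct4 Ctrl, the differences were -4.06 in Amotl2, -2.64 in Ccn2, -1.99 in Zfc3h1, -1.92 in Ppm1k, -1.84 in Zfp599 and -1.74 in Lats2. They were 2.58 in Trpv2, 2.16 in Slx1b, 2.15 in Rmi2, 2.10 in Slfn5, 1.88 in Mettl7a3 and 1.85 in Dnajb14. For the change from early to late ICM, Gm28438 differed by -4.97.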

How the results depend on the processing

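With 3848 genes called from morula to early ICM and 1839 from early to late ICM, dropping the fold minimum gave 5981 and 3624 and limma on the regularized logs 2013 and 853. The other alternatives that used all 20 MWT embryos, and the removal of early ICM 3 with late ICM 20 or of late ICMs 10 and 11, kept both counts within 1.5 times. Leaving out 1 embryo at a time gave 3470 to 3895 and 1469 to 1978, the lowest of the second without early ICM 9 and the highest without late ICM 20. The 83 genes whose first step differed from Oct4 Ctrl became 30 with UMIs thinned to 1 depth, and 62 (without early ICM 1) to 106 (without early ICM 7) with 1 embryo left out. The 1 gene at the second step became 15 with DESeq2, 10 with no filter on low counts, 4 without late ICMs 10 and 11, and 0 with the Oct4 MWT and Oct4 Ctrl embryos alone, with limma or with thinning. With 1 embryo left out it was 0 to 3, being 0 without early ICM 1 or 9 or late ICM 7, 11, 14, 15, 19 or 20, 2 without early ICM 7 or late ICM 4, and 3 without late ICM 10. Same-numbered embryos of different stages had residual correlations of -0.0972 to 0.0657 in 7 pairs, against -0.297 to 0.240 in the other pairs. No pairing by embryo number was seen, but 7 pairs are too few to decide whether the numbers mark a shared litter. A replicate block on these numbers gave 2880 and 636 genes for the steps and 51 for the first difference, against 3125 and 650 for the steps in the same embryos without the block. Under the block the second step changed sign for Eras (-0.51) and Fos (-0.20). The block could not be fitted for the second difference, because Oct4 Ctrl early and late ICMs share no number. Of 176 calls of a named gene at a step, 150 to 175 were kept under the alternatives without a block that use all embryos, and 166 to 175 with 1 embryo left out. DESeq2 did not call the first step of Btg4, Dlx3, Esrrb, Pdgfra or Socs3 or the second of Otx2, and thinning lost the first step of Krt7, Pdgfra, Pfkp, Sox17 and Spred3 and the second of Il6st, Otx2 and Tead3. Of 40 comparisons of an MWT embryo with the stages of Oct4 Ctrl and Sox2 Ctrl, 37 put it at the titled stage, the same number under 2000 genes or Pearson correlation. Late ICMs were shallower than the other stages, and folds of genes with few UMIs carry wide counting intervals. Of 35 named calls with 3 UMIs or fewer in a group, given as UMI ratios or bounds, 19 had a fitted fold that leaving out 1 embryo moved by over 1.5 times with the call kept.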
